A study of Mus musculus with 6 samples.

Results

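Chemokines are small secreted proteins that attract leukocytes. Members of the family were taken as every gene of the deposited count table whose symbol marks it as a chemokine (Ccl, Cxcl, Cx3cl, Xcl) or as a chemokine receptor (Ccr, Cxcr, Cx3cr, Xcr, Ackr). The rule used the symbol alone and no measured value. It found 47 members among 20140 listed genes, namely 28 ligands and 19 receptors. Of these, 34 members (19 ligands and 15 receptors) passed the filter on low counts and were tested, and 13 (9 ligands and 4 receptors) did not.

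The RNA came from 6 mouse livers taken on day 21, with 2 livers in each of 3 groups that the labels name control, intra-C and intra-S. Every label also gives CT26, a mouse colon carcinoma line of BALB/c origin. From the study's description, control mice had a sham operation with PBS, intra-C mice received CT26 cells in the cecum and were examined before liver metastases were seen, and intra-S mice received CT26 cells in the spleen, from which they seed the liver. The labels themselves do not spell out the 2 tumor names, and this reading comes from the study's text. The same text gives the animals as young adult BALB/c mice and describes no genetic change in them. Route, tumor site and possible tumor tissue in the sample differ together between the groups and cannot be told apart. Polyadenylated RNA of whole liver was sequenced, so each value sums over all cell types, and fewer cells of a type cannot be told apart from less RNA per cell. The deposited values were raw read counts per gene and the same data as TPM, which is corrected for gene length.

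Chemokines fall into groups by the receptors they bind. ELR-type CXC ligands act on Cxcr2 of neutrophils, the interferon-induced ligands Cxcl9, Cxcl10 and Cxcl11 act on Cxcr3 of activated T and NK cells, and many CC ligands act on Ccr1, Ccr2 or Ccr3 of monocytes, macrophages and eosinophils. Cxcl12 is the homeostatic ligand of Cxcr4, and atypical receptors (Ackr) bind and remove chemokines without classical signaling. In the liver, chemokines are known for recruiting myeloid cells and lymphocytes from the sinusoids.

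The livers had between 32838321 and 43368309 counts, and 3 counts, the limit that a count of 0 allows from counting error, equaled 0.0679 to 0.0928 CPM (read counts scaled to a fixed total per liver, with totals adjusted by edgeR's TMM method). The livers of a group differed by more than counting noise, most of all in intra-S, where 3.88% of the 7261 genes at 10 CPM or more were over 4-fold apart between the 2 livers, against 0.482% in intra-C and 0.193% in control. Of the 34 tested members, 9 were over 4-fold apart between the intra-S livers, 4 between the intra-C livers and 1 between the control livers. Throughout, a gene was called at an adjusted p under 0.05 in edgeR's quasi-likelihood test, fitted once over all 6 livers with adjustment over all 16370 tested genes. Without either 1 of the control livers, the same test called 0 of all genes in any comparison, so every call given here depends on having both. The fits without intra-S liver 1 or 2 called more members and more of all genes higher against control than the main fit, in both comparisons. They filtered low counts anew and tested 17564 and 17429 genes, so that members outside the 34 could enter. A fit without 1 liver leaves its group with a single liver, which is assumed to vary like the livers of the other groups, so that a call for that group describes 1 liver.

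Against control, 5 of 34 tested members were called higher in intra-C livers, where the background over all tested genes was 4.92%, and 2 were called lower, against a background of 2.38%. In intra-S livers, 8 of 34 were called higher against a background of 6.78%, and 2 were called lower against a background of 3.95%. Both comparisons share the same control livers. Cxcl14, Ccl6, Cxcl13, Cxcr2 and Ccr1 rose in both, Cxcl12 fell in both, Cxcl11 fell in intra-C, Ackr4 fell in intra-S, and Ackr3, Cxcr4 and Ccl24 rose in intra-S. These 11 members comprise 6 ligands and 5 receptors, and the other 23 tested members were called in neither comparison. Besides the control livers, leaving out either intra-C liver ended the calls of Ccr1, Cxcl12 and Cxcl13 in both comparisons, of Cxcl11 in intra-C, and of Ackr4, Ccl24 and Cxcr4 in intra-S. Leaving out intra-C liver 1 ended the call of Cxcr2 in intra-C. The calls of Cxcl14 and Ccl6 in both comparisons, and of Cxcr2 and Ackr3 in intra-S, held without any 1 tumor-group liver.

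By non-overlap, both intra-C livers lay above both control livers for 16 members, where the background was 34.4%, and below for 10, where it was 34%. Both intra-S livers lay above both control livers for 17 members, against a background of 30.4%, and below for 6, against a background of 30%. The median log2 fold change was 0.65 over the tested ligands and 1.80 over the tested receptors in intra-C, beside 0.01 over all tested genes. The ligand median was the less steady of these, and it came to -0.04 when the intra-C and control livers were fitted alone with their own filter. In intra-S the medians were 1.31 for ligands and 1.83 for receptors, beside 0.04 over all tested genes. Without intra-S liver 2, these became 0.71 and 0.46. Setting the members with 0 counts in control to their lower bound left all 4 main medians at the values given.

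**Figure D1:**
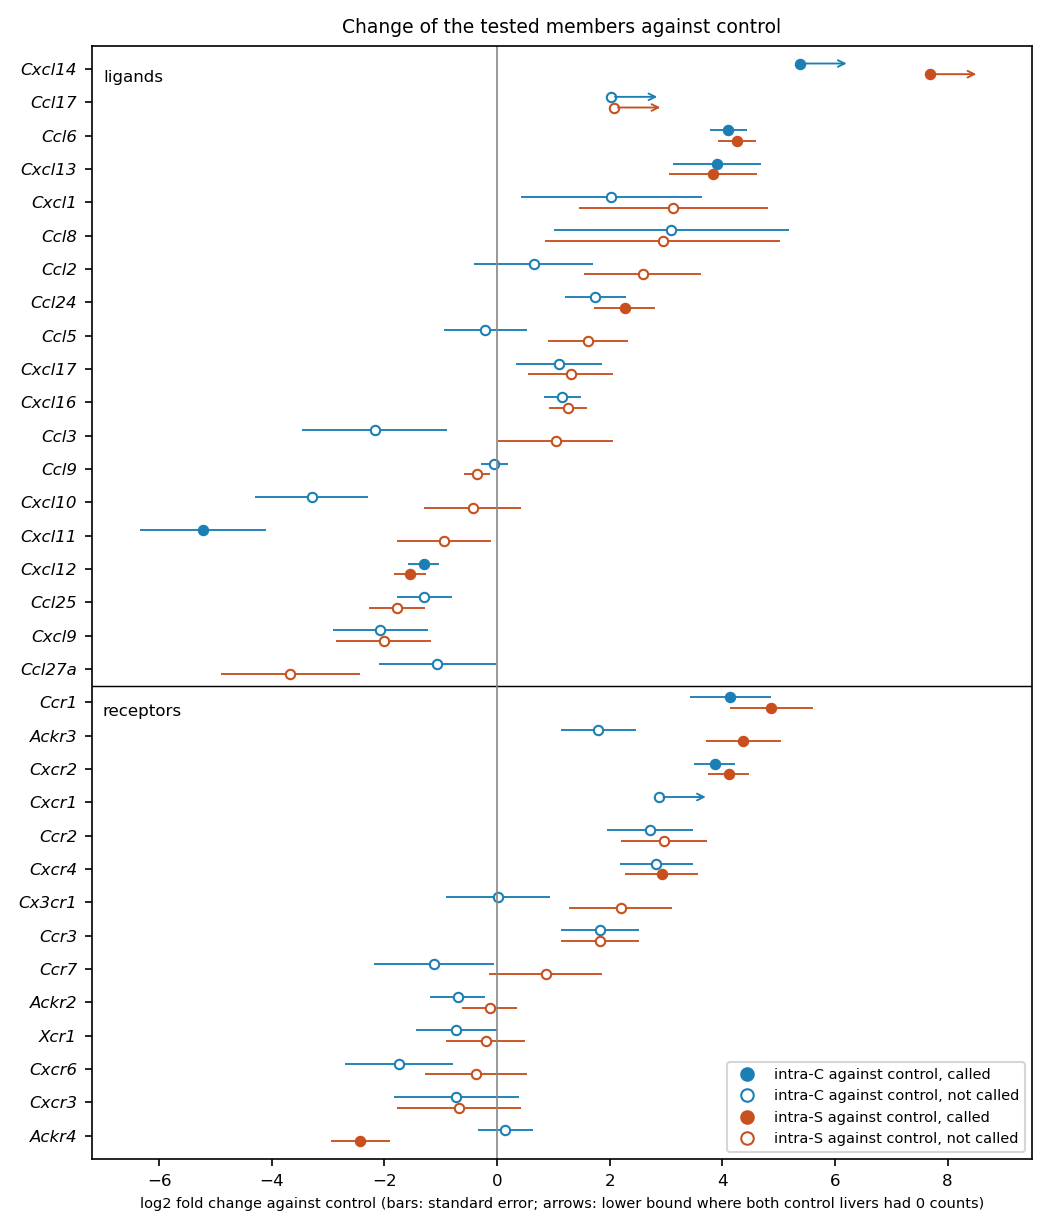
Log2 fold change of tested members (x axis) against control for intra-C (blue) and intra-S (orange), ligands above and receptors below the line, with bars for the standard error, filled points for calls and arrows for lower bounds where both control livers had 0 counts. Cxcr1 in intra-S has no point, because its level there lies within the limit that a count of 0 allows. Cxcl14, Ccl6, Cxcl13, Cxcr2 and Ccr1 are filled to the right of 0 for both groups, and Cxcl12 is filled to the left for both.

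The make-up of the ligand transcripts differed between the groups. Per length (TPM), Cxcl12 made up 46.0% and 51.5% of all ligand transcripts in the control livers. Its share was 12.4% and 12.8% in the intra-C livers and 12.0% and 5.89% in the intra-S livers, so that the control livers did not overlap with the others. Ccl6 held 2.08% and 3.71% of the ligand TPM in the control livers, 38.4% and 26.5% in the intra-C livers, and 49.5% and 16.8% in the intra-S livers. Cxcl1 varied most between livers of a group, with 16.9% and 6.89% in control, 21.4% and 39.4% in intra-C, and 1.59% and 59.6% in intra-S. The summed ligand TPM was 219 and 215 in control, 265 and 333 in intra-C, and 183 and 635 in intra-S. Leaving out Cxcl1, these sums were 182 and 200, 208 and 202, and 180 and 257, which shows that Cxcl1 carried most of the high sum of intra-S liver 2. The summed receptor TPM was far smaller, at 15.4 and 13.3 in control, 28.6 and 44.5 in intra-C, and 28.7 and 46.7 in intra-S. These sums and shares are a description without a test.

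**Figure D2:**
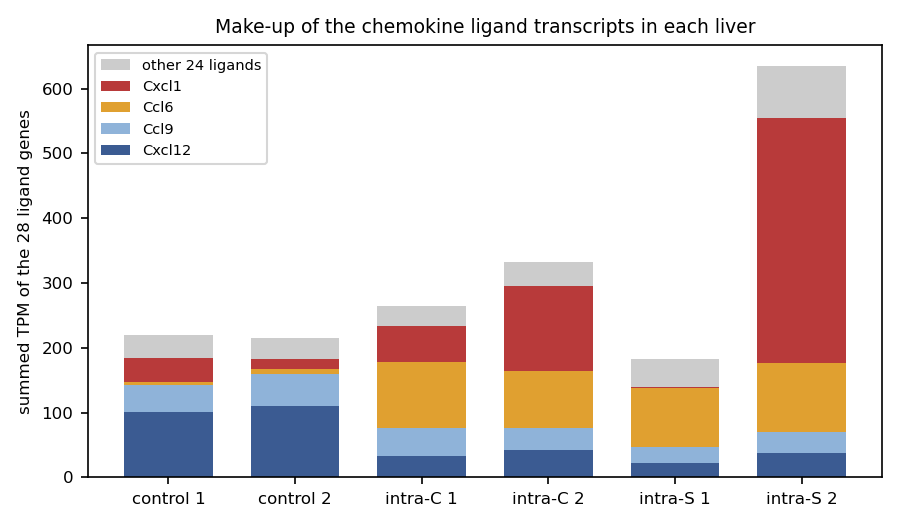
Summed TPM of the 28 ligand genes (y axis) in each of the 6 livers (x axis), with bar segments for Cxcl12, Ccl9, Ccl6, Cxcl1 and the other 24 ligands. Cxcl12 takes 46.0% and 51.5% of the control bars and at most 12.8% of the others, and Cxcl1 takes 59.6% of the bar of intra-S liver 2.

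Cxcl12, on chromosome 6 from 117168535 to 117181368 (this and all gene positions are in GRCm38.p6, the assembly behind mm10), is made by stromal and endothelial cells and was the most abundant ligand of the control livers per length, at 106 ± 7.19 TPM (SD, n = 2). It had 321 and 354 CPM in the control livers, 123 and 150 CPM in the intra-C livers, and 88.9 and 141 CPM in the intra-S livers. All 4 livers of the tumor groups were thus well under both control livers. The log2 fold change was -1.30 in intra-C (standard error 0.28, edgeR adjusted p = 0.0436) and -1.55 in intra-S (standard error 0.28, edgeR adjusted p = 0.0241). The direction held under all 17 alternatives in each comparison, with log2 fold changes from -1.56 to -1.17 in intra-C and from -1.92 to -1.25 in intra-S. The call in intra-S was lost when the intra-S and control livers were fitted alone, as were those of Cxcl13, Cxcr4 and Ccr1. Its receptors had higher levels in the tumor groups. Cxcr4, which guides leukocytes toward Cxcl12, had 1.03 and 0.362 CPM in control, 4.28 and 5.63 CPM in intra-C, and 7.52 and 3.09 CPM in intra-S. It was called in intra-S (log2 fold change 2.92, standard error 0.65, edgeR adjusted p = 0.0394) and missed the threshold in intra-C (2.83, standard error 0.65, edgeR adjusted p = 0.051). The intra-S call of Cxcr4 was also lost with limma on log2(TPM + 1). Ackr3, the atypical receptor that takes up Cxcl12, lies on chromosome 1 from 90203980 to 90215724. It had 0.148 and 0.0905 CPM in control, 0.586 and 0.247 CPM in intra-C, and 2.48 and 2.58 CPM in intra-S. It rose in intra-S (log2 fold change 4.38, standard error 0.67, edgeR adjusted p = 0.0156), whereas the intra-C difference was not called (1.80, standard error 0.66, edgeR adjusted p = 0.147). As markers of cells that make Cxcl12, 4 of 9 endothelial genes were called higher and 0 lower in each comparison. Of 9 stellate cell and fibroblast genes, 0 were called in intra-C and 3 were called higher in intra-S. The part of these cell types in the fall of Cxcl12 was not tested.

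Cxcl14, a chemokine of epithelial tissues, lies on chromosome 13 from 56288643 to 56296811 on the minus strand. It had 0 counts in both control livers, 129 and 85 counts in the intra-C livers (3.28 and 2.63 CPM) and 521 and 570 counts in the intra-S livers (15.2 and 14.0 CPM). The 3 groups did not overlap. Taking 3 counts in each control library as the limit, Cxcl14 was at least 41.7-fold higher in intra-C (edgeR adjusted p = 0.0058) and at least 206-fold higher in intra-S (edgeR adjusted p = 0.00443). Between the tumor groups its log2 difference, intra-S against intra-C, was 2.30 with a standard error of 0.29, and edgeR's adjusted p of 0.285 left it uncalled. Of 6 cholangiocyte and other epithelial markers, 0 were called in intra-C and 2 were called higher in intra-S, and the 6 genes summed to 201 and 237 CPM in control, 254 and 228 CPM in intra-C, and 541 and 336 CPM in intra-S. Whether epithelial or tumor cells carry the Cxcl14 reads was not tested. A stretch of 29 bases upstream of its start site in the RefSeq promoter table (chr13:56296714-56296742, minus strand, GRCm38.p6) is shown because this gene went from no counts to a clear level and the stretch holds both motif matches found. Capitals mark a match to the STAT motif TTCNNNGAA that starts 191 bases before that start and a match to the interferon-response motif (GAAA, any 2 bases, GAAA) that starts 172 bases before it. The span RefSeq gives for the gene reaches beyond this stretch, so another annotated start lies further upstream.
Cxcl14: TTCTGAGAAgtgtccacagGAAACAGAAA
Motifs were searched on both strands over the 250 bases before the start, and the matches shown here do not overlap one another. Among 32851 RefSeq promoters cut to these 250 bases, 7.02% held the STAT letters and 2.98% the interferon-response letters. A promoter entry was found for 34 of the 47 members (38 promoters), and the other members with the STAT letters were Ccl17, Ccr1l1 and Ccr6, while the other member with the interferon-response letters was Cxcl10. A match describes the sequence and not a bound site.

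Among the CC ligands, Ccl6 stood out. It is a CC chemokine of rodents that acts on Ccr1, and it lies on chromosome 11 from 83587886 to 83593087. Its levels were 2.91 and 5.12 CPM in control, 76.5 and 62.1 CPM in intra-C, and 73.5 and 80.7 CPM in intra-S. The log2 fold change was 4.11 in intra-C (standard error 0.33, edgeR adjusted p = 0.0058) and 4.26 in intra-S (standard error 0.34, edgeR adjusted p = 0.00469). It remained called under 15 of 17 alternatives in each comparison, the exceptions being the fits without 1 of the control livers. Its neighbor Ccl9, also a ligand of Ccr1 and on the same strand, lies 9249 bases away, from 83572917 to 83578636. Ccl9 had 56.8 and 65.2 CPM in control, 67.8 and 50.3 CPM in intra-C, and 42.4 and 53.0 CPM in intra-S. Its log2 fold changes of -0.05 (standard error 0.24, edgeR adjusted p = 0.922) and -0.36 (standard error 0.24, edgeR adjusted p = 0.356) were not called. Per length, Ccl6 was below Ccl9 in both control livers (4.56 and 7.996 against 42.5 and 48.7 TPM) and above it in all 4 tumor-group livers (88.1 to 106 against 24.9 to 43.0 TPM). From the same table, the 250 bases before each start are printed to set this pair side by side, with Ccl6 at chr11:83593088-83593337 and Ccl9 at chr11:83578637-83578886 (both minus strand). Capitals mark the only match, to the NF-kB motif (GGG, any 2 bases, TTTCC), on the opposite strand 35 bases before the start of Ccl9, and none of the 3 motifs searched was found in the Ccl6 stretch.
Ccl6: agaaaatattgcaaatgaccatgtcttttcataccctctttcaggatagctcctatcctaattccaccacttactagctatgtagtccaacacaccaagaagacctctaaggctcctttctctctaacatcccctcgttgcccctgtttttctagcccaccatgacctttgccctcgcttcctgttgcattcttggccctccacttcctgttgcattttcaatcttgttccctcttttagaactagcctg
Ccl9: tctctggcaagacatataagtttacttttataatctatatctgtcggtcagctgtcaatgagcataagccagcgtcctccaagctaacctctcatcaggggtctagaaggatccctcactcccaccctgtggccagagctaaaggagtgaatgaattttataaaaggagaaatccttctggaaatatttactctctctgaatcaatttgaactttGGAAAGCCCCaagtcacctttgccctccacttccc

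Ccl24 (eotaxin-2), which attracts eosinophils through Ccr3, had 2.61 and 2.94 CPM in control, 8.94 and 9.71 CPM in intra-C, and 6.18 and 20.5 CPM in intra-S. All tumor-group livers were above both controls. Ccl24 was called in intra-S (log2 fold change 2.26, standard error 0.54, edgeR adjusted p = 0.0484) but not in intra-C (1.75, standard error 0.54, edgeR adjusted p = 0.101). The intra-S call sat just inside the threshold, and 8 of 17 alternatives lost it. The log2 fold change of Ccl24 was 2.89 with intra-S liver 2 alone and 1.15 with intra-S liver 1 alone. Cxcl13, the attractant of B cells through Cxcr5, had 0.0493 and 0.272 CPM in control, 1.60 and 3.37 CPM in intra-C, and 2.33 and 2.38 CPM in intra-S. It rose in both groups, by a log2 fold change of 3.91 (standard error 0.78, edgeR adjusted p = 0.038) in intra-C and 3.83 (standard error 0.78, edgeR adjusted p = 0.0324) in intra-S. Its receptor Cxcr5 was under the filter with at most 6 counts in any liver, and 0 of 6 tested B cell markers were called in either comparison. Of the remaining CC ligands that attract myeloid cells and T cells, none was called. Ccl5, made by T and NK cells, had 0.222 and 0.634 CPM in control, 0.280 and 0.464 CPM in intra-C, and 1.02 and 1.62 CPM in intra-S. Both intra-S livers were above all others, but edgeR's adjusted p was 0.188 against control. Ccl2, the main attractant of Ccr2 monocytes, ranged from 0.172 to 0.433 CPM in control and intra-C livers, with 0.292 and 2.13 CPM in the intra-S livers. Only intra-S liver 2 stood high. Ccl3 ranged from 0 to 0.321 CPM over the 6 livers and Ccl8 from 0 to 0.407 CPM. Ccl7, Ccl11 and Ccl12, under the filter, also had their highest counts in intra-S liver 2, at 46, 31 and 42, and 0 counts in both control livers.

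Of the 3 interferon-induced ligands of Cxcr3, only Cxcl11 was called, lower in intra-C. Cxcl11 had 48 and 96 counts in the control livers (1.18 and 2.17 CPM), 2 and 1 counts in the intra-C livers, and 9 and 60 counts in the intra-S livers (0.262 and 1.47 CPM). It fell in intra-C (edgeR adjusted p = 0.0437), where control exceeded intra-C 40.5-fold with a 95% exact counting interval from 13.6 to 199. On the log2(TPM + 1) scale with limma this call was lost. In intra-S it was not called (log2 fold change -0.94, standard error 0.83, edgeR adjusted p = 0.486). Of its exonic bases in GENCODE, 41.7% overlap the pseudogene Gm2673 on the opposite strand. The library kit does not mark strand, so reads of the 2 cannot be told apart there, and Gm2673 itself had 0.443 and 0.272 CPM in control and 0 counts in intra-C. Cxcl10 had 2.37 and 1.15 CPM in control, 0.0255 and 0.340 CPM in intra-C, and 0.962 and 1.64 CPM in intra-S. Its intra-C livers were under both controls, yet the log2 fold change of -3.29 was not called (standard error 1.00, edgeR adjusted p = 0.0987). Cxcl9 had 16.6 and 12.0 CPM in control, 3.57 and 3.22 CPM in intra-C, and 0.700 and 6.35 CPM in intra-S. All 4 livers of the tumor groups lay under the controls, with log2 fold changes of -2.07 (standard error 0.85, edgeR adjusted p = 0.178) and -2.01 (standard error 0.84, edgeR adjusted p = 0.168). Without intra-S liver 1 the intra-S difference of Cxcl9 was -1.17, and without intra-S liver 2 it was -4.34, each the value of the single intra-S liver left. In intra-S, Cxcl10 overlapped with control (log2 fold change -0.43, standard error 0.86, edgeR adjusted p = 0.774). When the intra-C and control livers were fitted alone, Cxcl9, Cxcl10 and Cxcl11 were all called lower, in a fit that called 2223 of 15649 genes lower. Their receptor Cxcr3 had 0.0583 to 0.611 CPM over the 6 livers and was not called, nor was any of 10 tested T and NK cell markers.

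**Figure D3:**
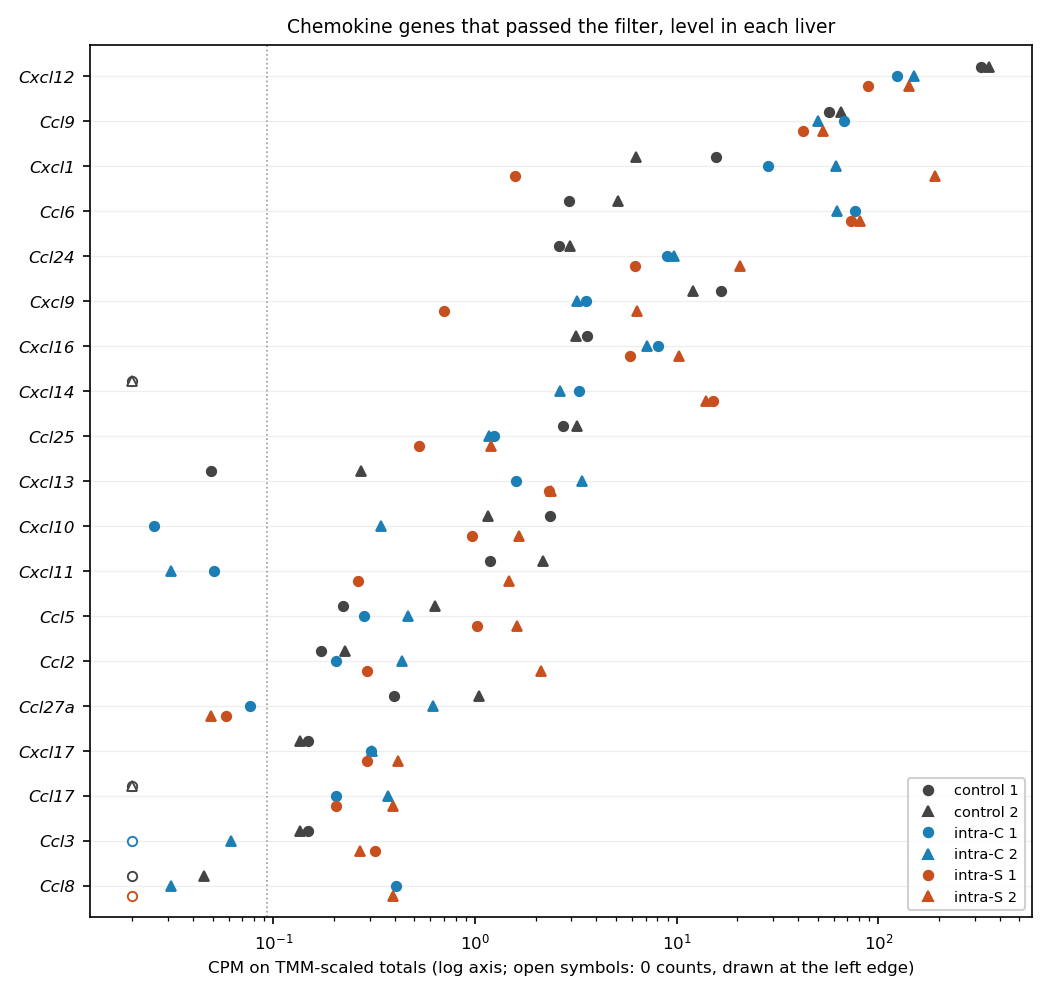
CPM on a log axis (x) of the 19 tested ligand genes (y) in each liver, with color for the group, circles for liver 1 and triangles for liver 2, open symbols for 0 counts and a dotted line at 0.0928 CPM, the highest level that 3 counts stand for. Ccl6 lies between 62.1 and 80.7 CPM in the 4 tumor-group livers and at 5.12 CPM or less in control, and Cxcl1 spans 1.57 to 191 CPM within intra-S.

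The neutrophil attractants of the ELR type split between the livers of the intra-S group. Cxcl1 had 15.7 and 6.32 CPM in control, 28.3 and 61.4 CPM in intra-C, and 1.57 and 191 CPM in intra-S. The first intra-S liver was thus the lowest and the second the highest of all 6. No difference against control was called, with log2 fold changes of 2.03 (standard error 1.61, edgeR adjusted p = 0.465) in intra-C and 3.13 (standard error 1.68, edgeR adjusted p = 0.263) in intra-S. The log2 difference from control was 4.12 with intra-S liver 2 alone and -2.80 with intra-S liver 1 alone, which restates the levels of these single livers. Cxcl2, whose gene lies 10777 bases from that of Cxcl1 on chromosome 5, showed the opposite order. It had 0 counts in both control livers, 6 and 0 counts in intra-C, and 196 and 4 counts in intra-S (5.72 and 0.0981 CPM). With 1 liver at a clear level, Cxcl2 was under the filter and was not tested. Cxcl5 had at most 9 counts in any liver.

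The 250 bases before the start of each gene are shown because both genes hold 2 NF-kB matches, while their order in the 2 intra-S livers was opposite. Cxcl1 is at chr5:90890995-90891244 and Cxcl2 at chr5:90903649-90903898, both on the plus strand, and capitals mark matches to the same NF-kB motif on either strand.
Cxcl1: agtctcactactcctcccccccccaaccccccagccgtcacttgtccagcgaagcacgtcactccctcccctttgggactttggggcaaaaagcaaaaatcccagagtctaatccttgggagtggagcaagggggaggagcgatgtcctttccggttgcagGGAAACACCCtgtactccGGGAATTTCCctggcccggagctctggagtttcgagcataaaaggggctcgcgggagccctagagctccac
Cxcl2: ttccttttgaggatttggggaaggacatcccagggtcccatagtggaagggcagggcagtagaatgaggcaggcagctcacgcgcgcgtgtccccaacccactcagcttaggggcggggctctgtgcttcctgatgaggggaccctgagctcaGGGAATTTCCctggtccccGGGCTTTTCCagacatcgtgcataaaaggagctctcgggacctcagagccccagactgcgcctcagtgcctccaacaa
The matches start 89 and 71 bases before the start of Cxcl1, and 97 and 78 bases before that of Cxcl2. Among the 32851 promoters, 1.41% held these letters, and the other members with a match were Ccl9 and Ccr3.

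**Figure D4:**
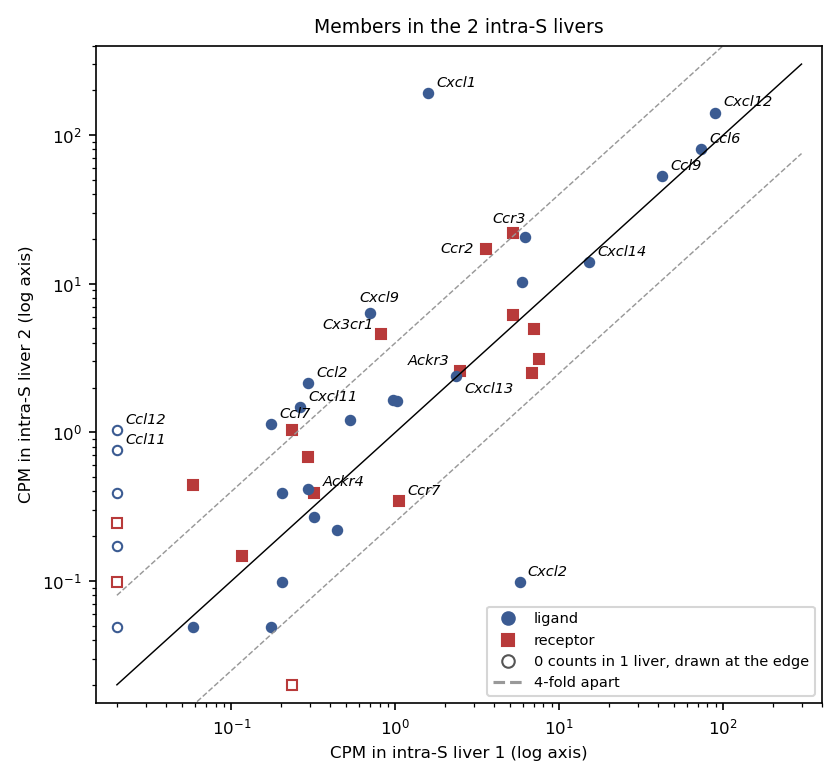
CPM of members in intra-S liver 1 (x, log axis) and intra-S liver 2 (y, log axis), circles for ligands and squares for receptors, with a solid line for equal levels and dashed lines at 4-fold. Cxcl1 lies far above the upper dashed line (1.57 and 191 CPM), Cxcl2 far below the lower one (5.72 and 0.0981 CPM), and Ccl6, Cxcl14 and Ackr3 lie near the solid line.

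Cxcr2, the receptor of neutrophils for Cxcl1 and Cxcl2, rose in both comparisons. It lies on chromosome 1 from 74153994 to 74161246 and had 0.345 and 0.340 CPM in control, 5.47 and 4.61 CPM in intra-C, and 6.97 and 4.98 CPM in intra-S. The log2 fold change was 3.87 in intra-C (standard error 0.36, edgeR adjusted p = 0.00702) and 4.11 in intra-S (standard error 0.37, edgeR adjusted p = 0.00578). In intra-S liver 1, where Cxcl1 was at its lowest, Cxcr2 was at its highest level of the 6 livers. Its neighbor Cxcr1 had 0 counts in both control livers, 24 and 14 counts in intra-C, and 0 and 4 counts in intra-S. In intra-C this is at least 7.36-fold higher than control, though it was not called (edgeR adjusted p = 0.0811). Ccr1, which binds Ccl6 and Ccl9 and is carried by neutrophils, monocytes and macrophages, had 0.345 and 0.0453 CPM in control, 3.77 and 3.12 CPM in intra-C, and 5.25 and 6.13 CPM in intra-S. It rose by a log2 fold change of 4.14 (standard error 0.72, edgeR adjusted p = 0.0281) in intra-C and 4.87 (standard error 0.74, edgeR adjusted p = 0.0154) in intra-S. The control livers held 14 and 2 counts of Ccr1. Its log2 fold changes under the alternatives ranged from 1.56 to 6.16 in intra-C and from 2.02 to 6.88 in intra-S. Of 9 monocyte and infiltrating macrophage markers, 5 were called higher in intra-C and 6 in intra-S. Neutrophil markers moved with these receptors throughout. All 13 neutrophil markers were called higher in both comparisons, with sums of 11.7 and 12.6 CPM in control, 1803 to 3472 CPM in intra-C and 2739 to 3839 CPM in intra-S, most of it from Lcn2, which hepatocytes also make. Camp, Elane and Mpo were at 0 counts in both control livers. Their part in the rise of Cxcr2 and Ccr1 was not tested. Of 8 erythroid markers, 0 were called in intra-C and 6 were called higher in intra-S, with sums of 230 and 411 CPM in control, 409 and 259 CPM in intra-C, and 1679 and 1198 CPM in intra-S. Their part in the intra-S values was not tested.

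Ccr2, of monocytes, and Ccr3, of eosinophils, lie close together on chromosome 9 between 124017825 and 124109140. Ccr2 had 1.36 and 1.29 CPM in control, 5.78 and 11.7 CPM in intra-C, and 3.56 and 17.2 CPM in intra-S. Ccr3 had 4.04 and 3.55 CPM in control, 8.53 and 18.5 CPM in intra-C, and 5.22 and 21.8 CPM in intra-S. For both receptors, every tumor-group liver was above both controls and intra-S liver 1 was the lowest of these. None of their 4 differences from control was called, with log2 fold changes between 1.83 and 2.97 and edgeR adjusted p-values between 0.0571 and 0.152. Fitted without intra-S liver 1, both were called higher in both comparisons, as were 2546 of all genes in intra-C and 1683 in intra-S. Without intra-S liver 2, the log2 fold change in intra-S was 1.43 for Ccr2, which was called, and 0.46 for Ccr3, which was not (edgeR adjusted p = 0.467). In intra-S these fits rest on 1 liver each. Kupffer cell markers were also lower in intra-S liver 1, at a sum of 722 CPM, than in intra-S liver 2 (1288 CPM) and the intra-C livers (1082 and 1275 CPM), against 229 and 226 CPM in control. In intra-C, 10 of 10 were called higher, and in intra-S 9 of 10. Of 9 monocyte markers, 5 and 6 were called higher, and their part in these receptor levels was not tested.

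**Figure D5:**
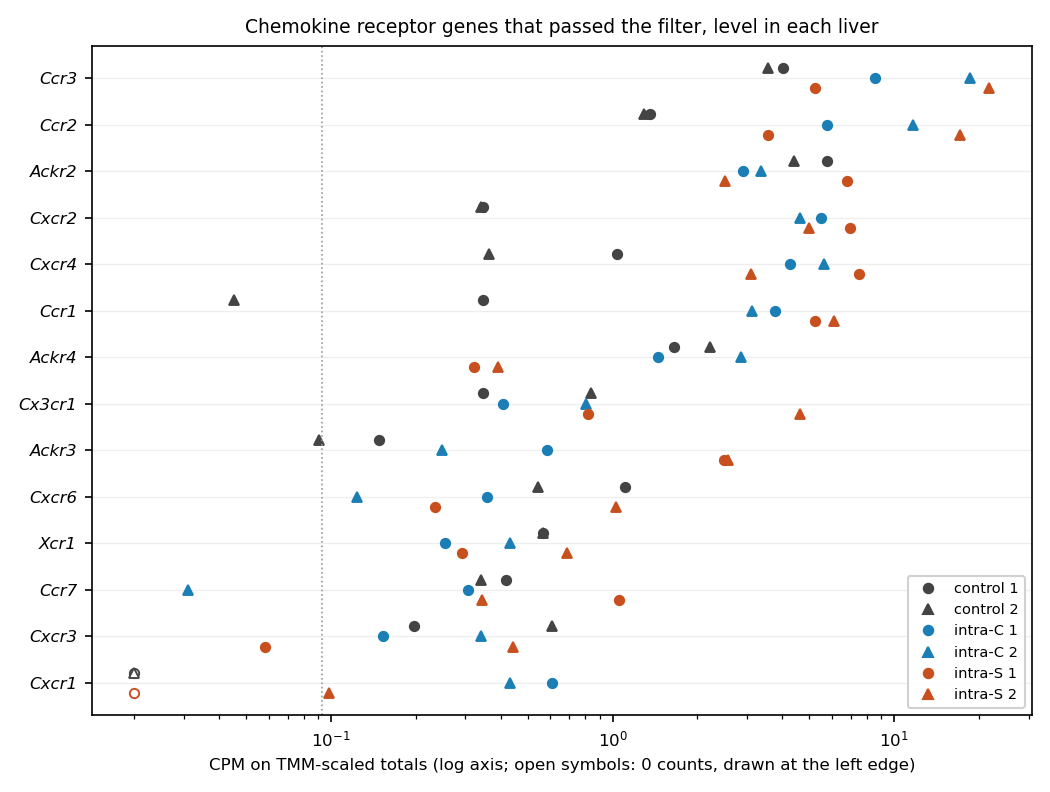
CPM on a log axis (x) of tested receptor genes (y) in each liver, with the same colors and symbols as for the ligands. Cxcr2 lies between 4.61 and 6.97 CPM in the 4 tumor-group livers and near 0.34 CPM in control, and Ackr4 is below 0.4 CPM in the intra-S livers alone.

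Ackr4, which removes Ccl19, Ccl21 and Ccl25, lies on chromosome 9 from 104097682 to 104126643. It had 1.65 and 2.22 CPM in control, 1.45 and 2.85 CPM in intra-C, and 0.321 and 0.393 CPM in intra-S. The intra-S livers lay under the other 4, and Ackr4 fell in intra-S (log2 fold change -2.43, standard error 0.53, edgeR adjusted p = 0.0387) but not in intra-C (0.15, standard error 0.48, edgeR adjusted p = 0.876). The call was lost without intra-S liver 1 and when the intra-S and control livers were fitted alone. Of its exonic bases, 8.9% overlap Acad11 on the opposite strand, and Acad11, at 267 and 265 CPM in control, 158 and 227 CPM in intra-C, and 73.1 and 121 CPM in intra-S, was itself called lower in intra-S (log2 fold change -1.46, edgeR adjusted p = 0.0361). Without strand, the part of Acad11 reads in the Ackr4 counts was not tested. Ackr2, which removes inflammatory CC ligands, had 2.50 to 6.79 CPM over the 6 livers and was not called. Ccl25, a ligand of Ackr4 and of Ccr9, had 2.73 and 3.21 CPM in control, 1.25 and 1.18 CPM in intra-C, and 0.525 and 1.20 CPM in intra-S. All tumor-group livers were lower, with log2 fold changes of -1.29 (edgeR adjusted p = 0.155) and -1.77 (edgeR adjusted p = 0.0711).

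The other tested members were not called against control. Cxcl16, a membrane-bound ligand of Cxcr6, had 3.17 to 3.60 CPM in control and 5.89 to 10.3 CPM in the tumor groups, without overlap, and 18.3% of its exonic bases overlap Zmynd15 on the opposite strand. Cx3cr1, carried by monocytes and resident macrophages, ranged from 0.345 to 0.838 CPM except in intra-S liver 2, where it was at 4.61 CPM. Ccl27a ranged from 0.0491 to 1.04 CPM, with the lowest values in intra-S. Near-identical copies of this gene exist, and reads that match several copies are lost where only unique reads are counted. Cxcr6 ranged from 0.124 to 1.11 CPM, Ccr7, which guides dendritic and naive T cells to lymph nodes, from 0.0309 to 1.05 CPM, and Xcr1, of cross-presenting dendritic cells, from 0.255 to 0.687 CPM. Cxcl17 ranged from 0.136 to 0.417 CPM. Ccl17, a ligand of Ccr4, had 0 counts in control, 8 and 12 in intra-C, and 7 and 16 in intra-S. It was thus at least 4.05-fold and at least 4.21-fold higher, with edgeR adjusted p-values of 0.0688 and 0.0557. The remaining members under the filter were Ccl4 (at most 15 counts in any liver), Ccl22 (8), Cx3cl1 (12), Xcl1 (7), Ccr1l1 (8), Ccr6 (16) and Ccr9 (11).

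Between the tumor groups, intra-S against intra-C, 0 of 34 members were called higher or lower by edgeR, as were 0 of all 16370 tested genes (a background of 0% each way), with 7 members (20.6%) and 2193 of all genes (13.4%) at an unadjusted p under 0.05. DESeq2 called 3 members higher (Cxcl14, Ackr3 and Cxcl11) and 1 lower (Ackr4), and 240 higher and 287 lower of all genes. Both intra-S livers lay above both intra-C livers for 9 members, where the background was 21.9%, and below for 3, where it was 21.5%. Cxcl14, Ackr3, Ackr4 and Cxcl11 had the smallest unadjusted p-values, at log2 differences of 2.30 (standard error 0.29), 2.58 (0.60), -2.57 (0.53) and 4.29 (1.11), each with an edgeR adjusted p of 0.285. The Cxcl11 difference rests on 3 counts in intra-C, and in counts it was 21.9-fold with a 95% exact interval from 7.20 to 109. With all 6 livers, edgeR thus called no difference between the tumor groups for Ackr3 or Ackr4, which were called against control in intra-S alone. Without intra-S liver 2, liver 1 alone stood for intra-S. The log2 difference from intra-C was then 2.36 for Cxcl14 and 1.11 for Ackr2. It was -2.73 for Ackr4, -4.83 for Cxcl1 and -2.27 for Cxcl9.

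Genes that work with chemokines but lack such symbols were taken from 3 further lists. Over all tested genes, 4.92% were called higher in intra-C and 6.78% in intra-S. Of 6 chemokine-like genes and their receptors, 3 were called higher in each comparison and 0 lower. Both platelet chemokines were among them. Pf4 had 0.665 and 0.634 CPM in control, 2.75 and 6.81 CPM in intra-C, and 11.9 and 8.32 CPM in intra-S, with log2 fold changes of 2.87 (edgeR adjusted p = 0.0289) and 3.95 (edgeR adjusted p = 0.0117). Ppbp, a ligand of Cxcr2, had 0.394 and 0.679 CPM in control, 5.78 and 12.99 CPM in intra-C, and 10.5 and 17.9 CPM in intra-S, with log2 fold changes of 4.11 (edgeR adjusted p = 0.0154) and 4.71 (edgeR adjusted p = 0.00929). Of 34 genes of receptor signaling, 14 were called higher in intra-C and 15 in intra-S, and 0 lower. They include Pik3r5, a subunit of the leukocyte PI3-kinase (log2 fold changes 3.22 and 2.64), Dock2, which drives leukocyte migration (2.64 and 2.32), and Rgs2, which damps G-protein signals (2.50 and 3.97). The median over this list was 1.47 in intra-C and 1.31 in intra-S. Many of these genes are expressed mainly by leukocytes. Of the leukocyte markers given above, those of neutrophils, Kupffer cells and, in part, monocytes were called higher, and those of T, NK and B cells were not called. Of 8 dendritic cell markers, 0 were called in either comparison. The part of leukocytes in these signaling genes was not tested. Of 11 genes of chemokine presentation and cleavage, 3 were called higher in intra-C and 4 in intra-S, and 0 lower. The neutrophil protease Mmp8, also 1 of the 13 neutrophil markers, had 0.0246 and 0.0453 CPM in control and 6.18 to 26.2 CPM in the tumor groups, with log2 fold changes of 7.73 (edgeR adjusted p = 0.013) and 8.71 (edgeR adjusted p = 0.00782).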

How the data were processed

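Bulk RNA-seq of 6 mouse livers (2 per group) was used. Per the labels and the study's methods, poly(A) RNA libraries were made with a kit that does not mark strand, and the authors aligned reads to mm10 with HISAT2 2.1.0 and assigned unique exonic reads to genes with featureCounts of Subread 2.0.6. The annotation and the strand setting are not given in the sources used here. The authors deposited raw counts and TPM values for 20140 genes, and no listed gene had under 6 counts summed over the livers. Groups were taken from the labels. Whether the 2 livers of a group came from separate mice rests on the series' text, which calls them biological replicates.

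In R 4.3.3, counts were tested with edgeR 4.0.16 (TMM, filterByExpr with a count minimum of 10, quasi-likelihood F-test, 1 fit over 6 livers, Benjamini-Hochberg adjustment over 16370 genes). CPM uses TMM-scaled totals. Standard errors were derived as the log2 fold change divided by the square root of F. Limits for a count of 0 use 3 counts per library, and 95% intervals of count ratios are exact (Clopper-Pearson) and cover counting error only. Alternatives used DESeq2 1.42.0, limma 3.58.1 on log2(TPM + 1) and log2(TPM + 0.1), and other filters, scalings and sets of livers. The procedure was tested on simulated data. The members and lists were chosen with earlier results of these data known. Every member was to be accounted for (1 tested receptor enters the counts and sums but is not reported here on its own), and other genes were named only if called, at most 10 per comparison and direction, or where they overlap a member. Protein sequences were not used here. Promoters came from RefSeq (GRCm38.p6) and exon overlaps from GENCODE M21.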

Additional observations from a re-analysis of the deposited data

Results flagged for a closer look

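Ccl3, a ligand of Ccr1, was lower than both controls in both intra-C livers and higher than both in the intra-S livers. It had 6 and 6 counts in control, 0 and 2 in intra-C, and 11 and 11 in intra-S. The log2 difference of intra-S against intra-C was 3.22 (standard error 1.25, edgeR adjusted p = 0.358), which was not called, and in counts it was 10.5-fold with a 95% exact interval from 2.58 to 92.1. Neither difference from control was called.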

How the results depend on the processing

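No called member reversed its direction under any alternative. The number of members called changed as follows, given as higher and lower. In intra-C against control (5 and 2, beside 806 and 389 of all genes), DESeq2 called 13 and 3 (1709 and 1110), at least 10 counts in every liver gave 3 and 1 (751 and 426), the fit of only the 2 groups gave 13 and 5 (2548 and 2223), and limma on log2(TPM + 1) gave 6 and 1 (497 and 896). In intra-S against control (8 and 2, beside 1110 and 646), DESeq2 called 13 and 4 (2065 and 1465), at least 10 counts in every liver gave 4 and 2 (940 and 624), and the fit of only the 2 groups gave 4 and 0 (276 and 116). The filter at 10 counts in every liver left 13018 genes. Of the called members, it removed Cxcl14, Cxcl13, Cxcl11, Ccr1 and Ackr3 before any test, so their calls were absent through the filter itself. In intra-S against intra-C (0 and 0), DESeq2 called 3 and 1. Leaving out each liver in turn gave 0 to 14 higher and 0 to 5 lower in intra-C (0 to 2546 and 0 to 2112 of all genes), 0 to 16 and 0 to 6 in intra-S (0 to 3010 and 0 to 2683), and 0 to 3 and 0 to 4 between the tumor groups (0 to 1312 and 0 to 1572). The zeros against control came from the fits without a control liver, and for lower calls also from those without an intra-C liver. The high counts came from those without intra-S liver 1 or 2. Each such fit applied its own filter on low counts, so that members outside the 34 could enter its counts. Each also assumes that the lone liver of its group varies like the other groups. The cause was not tested. With the replicate block, 6 and 2 members were called in intra-C (673 and 259 of all genes), 9 and 2 in intra-S (954 and 553), and 0 and 0 between the tumor groups. Same-numbered livers did not deviate together over the tested genes (correlations of -0.03 to 0.08). With 1 difference per group, this cannot settle whether the numbers pair them. Without TMM the median of all genes moved to -0.25 in intra-C and -0.23 in intra-S, and 569 and 801 of all genes were called in intra-C and 838 and 1115 in intra-S. With 2 livers per group, low members such as Ccl3, Ccl8 and Cxcr1 rest on few counts, and a member without a call is not shown to be unchanged.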
